A study of Mus musculus with 12 samples.

Results

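The 39 protein-coding Hox genes of the mouse were described by their accessible chromatin in mTEChi, medullary thymic epithelial cells that are mature and carry much MHC class II. They were every RefSeq gene of build mm10 whose symbol is Hoxa, Hoxb, Hoxc or Hoxd followed only by digits, 39 of 21631 protein-coding genes on chromosomes 1 to 19 and X. Hoxa held 11 of them (chr6:52155367-52260880), Hoxb 10 (chr11:96194316-96368254), Hoxc 9 (chr15:102921131-103036856) and Hoxd 9 (chr2:74668225-74765142). A gene was called open in a library when at least 1 peak of that library lay within 1 kb of either annotated end of the gene. The data were ATAC-seq peak lists, which mark where a transposase can enter chromatin, from 12 libraries of C57BL/6 mice aged 4 to 7 weeks. The groups were Aire -/- mice (2 libraries) with Aire +/+ wild types (2), Aire +/C313Y heterozygotes (2) with Aire +/+ wild types (2), and Aire +/C442G heterozygotes (2) with Aire +/+ wild types (2). All groups share the strain and the sorted population, and no transgene or Cre is named. C313Y and C442G are missense changes in AIRE, the regulator that lets these cells transcribe antigens of other tissues. The labels do not say whether the libraries of a group came from separate animals, so the spread between them may be technical.

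Hox genes encode homeodomain transcription factors that give body segments their identity, and in each cluster the genes lie in the order of the body regions they pattern. The low-numbered genes act anteriorly and the high-numbered genes posteriorly, and retinoic acid, Polycomb repressors and Trithorax activators are the best known switches of the clusters. Hoxa3 is needed for the mouse thymus to form at all, whereas posterior Hox genes such as Hoxa13 and Hoxd13 belong to limbs and the rear of the body.

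The sequences shown are the starts of Hoxd1, Hoxd9, Hoxd4, Hoxa5, the internal start of Hoxd11 and, as one without a peak, Hoxa9. No open call rests on the internal start of Hoxd11, which lies more than 1 kb from either end of the gene. Each run below is the 250 bases before an annotated start of transcription, 5′ to 3′ on the gene's strand, from RefSeq with build GRCm38.p6. Capitals mark the bases that a peak covered in at least 1 library, so they show how far the accessible stretch reached into each promoter.
Hoxd1, chr2:74762730-74762979, plus strand: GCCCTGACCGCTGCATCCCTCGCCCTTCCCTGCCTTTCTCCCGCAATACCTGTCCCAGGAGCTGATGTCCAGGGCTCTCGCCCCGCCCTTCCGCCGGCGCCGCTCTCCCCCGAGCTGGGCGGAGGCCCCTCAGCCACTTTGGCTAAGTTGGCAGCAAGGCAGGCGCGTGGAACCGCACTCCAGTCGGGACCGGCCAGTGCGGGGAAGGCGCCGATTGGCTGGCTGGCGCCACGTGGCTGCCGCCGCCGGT
Hoxd9, chr2:74697513-74697762, plus strand: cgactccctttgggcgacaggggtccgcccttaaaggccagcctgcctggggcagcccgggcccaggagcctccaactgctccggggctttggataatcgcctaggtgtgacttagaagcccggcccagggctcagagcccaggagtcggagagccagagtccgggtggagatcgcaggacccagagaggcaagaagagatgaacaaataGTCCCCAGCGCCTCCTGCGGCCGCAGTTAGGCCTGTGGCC
Hoxd4, chr2:74721728-74721977, plus strand: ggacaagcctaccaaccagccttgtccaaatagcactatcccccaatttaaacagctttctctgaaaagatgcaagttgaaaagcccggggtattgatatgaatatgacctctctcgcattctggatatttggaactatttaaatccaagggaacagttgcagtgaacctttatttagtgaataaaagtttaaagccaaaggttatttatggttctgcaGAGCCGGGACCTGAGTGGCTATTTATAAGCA
Hoxa5, chr6:52204588-52204837, minus strand: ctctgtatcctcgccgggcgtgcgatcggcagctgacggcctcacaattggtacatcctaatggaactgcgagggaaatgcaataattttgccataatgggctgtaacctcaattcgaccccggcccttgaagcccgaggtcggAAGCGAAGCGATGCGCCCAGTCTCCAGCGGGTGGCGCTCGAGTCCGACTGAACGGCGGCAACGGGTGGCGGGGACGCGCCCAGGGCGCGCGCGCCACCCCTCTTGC
Hoxd11 internal start, chr2:74682073-74682322, plus strand: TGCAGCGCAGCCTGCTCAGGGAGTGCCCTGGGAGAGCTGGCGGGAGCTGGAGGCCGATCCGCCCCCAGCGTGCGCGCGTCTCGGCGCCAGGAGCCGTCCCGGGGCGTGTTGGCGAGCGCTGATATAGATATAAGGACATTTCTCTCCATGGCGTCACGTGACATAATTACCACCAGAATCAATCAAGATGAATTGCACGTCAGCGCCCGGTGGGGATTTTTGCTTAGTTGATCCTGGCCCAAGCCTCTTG
Hoxa9, chr6:52227371-52227620, minus strand: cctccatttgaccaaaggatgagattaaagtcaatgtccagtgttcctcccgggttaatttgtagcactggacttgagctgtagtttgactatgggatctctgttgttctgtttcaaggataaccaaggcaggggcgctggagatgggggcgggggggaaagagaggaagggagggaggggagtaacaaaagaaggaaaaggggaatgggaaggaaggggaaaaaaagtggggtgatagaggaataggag
Peaks touched these stretches in 9 libraries at Hoxd1, in 4 at Hoxd9, in 3 at Hoxd4, in 7 at Hoxa5 and in 10 at the internal start of Hoxd11. Pooled over libraries, accessible bases covered the whole printed stretch at Hoxd1 and Hoxd11 and only the last 40 bases before the start at Hoxd9. At Hoxd1 only the peak of the first wild type of the C442G set (fold 3.38) spanned the stretch, and the other peaks began inside it. In the Hoxd11 region peaks were 175 to 604 bp wide, so the narrowest could not span the stretch.

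List length ranged from 34047 to 122326 peaks on chromosomes 1 to 19 and X, and the sequencing depth behind the lists is unknown because no read counts accompany them. Of 14 mTEChi markers, 7 had a peak at a gene end in all 12 libraries, among them Aire, Epcam, Cd74 and H2-Aa, and Ciita had one in none. Cd80 had one in 1 library, Krt5 and Krt14 in 8 each, Foxn1 and Cd86 in 9 each and Fezf2 in 11. The number of the 14 markers open was 9 and 11 in Aire -/- libraries, against 7 and 8 in their wild types. It was 10 to 13 in the other libraries. Markers of other cell types, except the endothelial ones, were also open in greater number in Aire -/- libraries, whose lists were longer. Of all genes 61.3% and 63.0% were open there, against 51.6% and 51.6% in their wild types. Of 12 T cell genes 3 to 4 were open in Aire -/- libraries, against 1 in each of their wild types, and 1 to 4 were open elsewhere. Cd4 and Thy1 were gained (open in both mutants and neither wild type), beside 5.21% of all genes. Thy1 was lost (the reverse) in the C442G contrast, beside 0.291% of all genes. Cd8a, Lck, Zap70, Rag1 and Rag2 were open in no library. Of 6 B cell genes 1 to 3 were open in Aire -/- libraries, against 0 in their wild types, with Vpreb3 gained and Ms4a1 open in no library. Of 8 dendritic cell and macrophage genes 4 to 5 were open in Aire -/- libraries, against 3 in each wild type, and of 7 endothelial genes 1 was open in each of these 4 libraries. Of 9 fibroblast genes 5 were open in each Aire -/- library, against 0 to 2 in their wild types. They numbered 2 to 3 in +/C313Y libraries, against 4 to 5 in their wild types, and 5 to 6 in both groups of the C442G set. What these lists contribute to the Hox calls was not tested.

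At the 1 kb limit Hox genes were open less often than protein-coding genes in general in all 12 libraries, an order that turned round in 6 libraries at 2500 bp. Aire -/- libraries had 18 and 21 of 39 Hox genes open (19.5 ± 2.12, SD, n = 2), against 7 and 6 in their wild types (6.5 ± 0.707, SD, n = 2). The +/C313Y libraries had 13 and 13 open (13 ± 0, SD, n = 2), against 13 and 10 in their wild types (11.5 ± 2.12, SD, n = 2). The +/C442G libraries had 22 and 21 open (21.5 ± 0.707, SD, n = 2), against 23 and 20 in their wild types (21.5 ± 2.12, SD, n = 2). The knockout groups did not overlap, and the ranges of both heterozygote groups touched or overlapped those of their wild types. As a share, 46.2% and 53.8% of Hox genes were open in Aire -/- libraries, against 17.9% and 15.4% in their wild types. Of all protein-coding genes 61.3% and 63.0% were open in Aire -/- libraries, against 51.6% and 51.6% in their wild types. Pooled over 12 libraries, 40.0% of the Hox gene-by-library calls were open, against 60.8% for all genes.

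The number of open Hox genes moved with the length of the list. The wild types of the knockout set had the shortest lists, 34715 and 34047 peaks, whereas the Aire -/- lists held 85826 and 94976. When every list was cut to its strongest 34047 peaks (its widest, in the C313Y set, whose lists hold no scores), Aire -/- libraries had 5 and 8 open Hox genes, against 7 and 6 in their wild types. At that length +/C313Y libraries had 7 and 6, against 4 and 6 in their wild types, and +/C442G libraries had 6 and 7, against 6 and 8. The groups of every contrast touched or overlapped at equal length, and Hox genes were still open less often (10.3% to 20.5%) than all genes (47.3% to 54.8%).

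**Figure D1:**
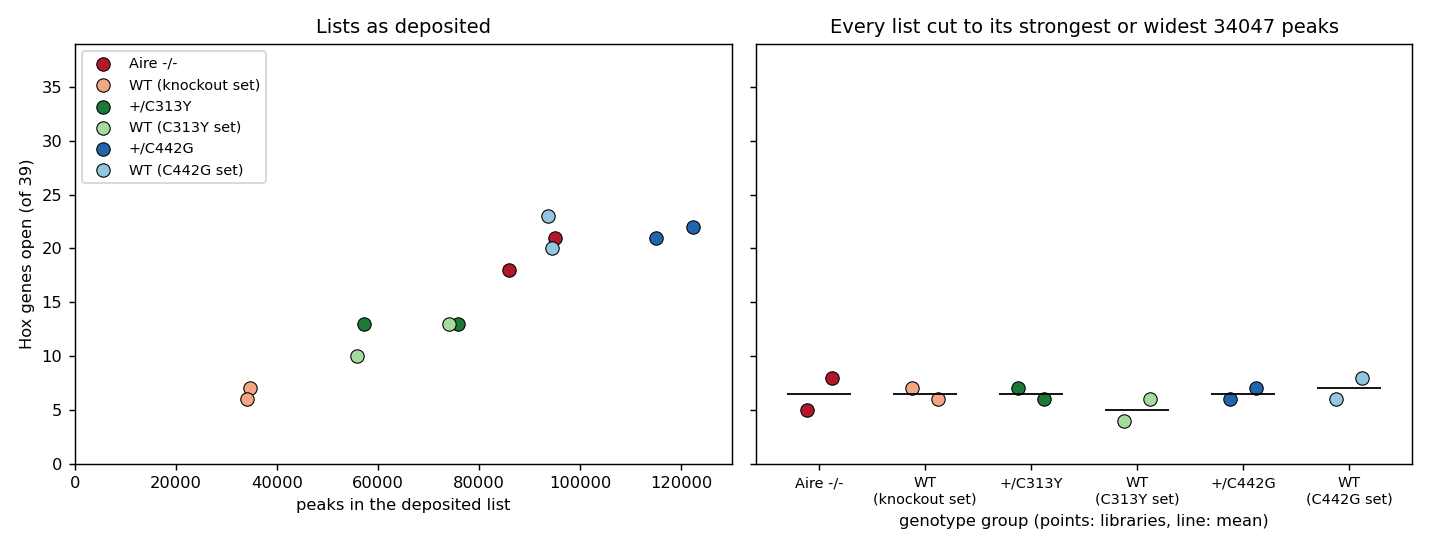
Number of Hox genes open (y axis, of 39) against the number of peaks of each deposited list (left), and by group after each list was cut to 34047 peaks, ranked by −log10 p or, in the C313Y set, by width (right). Points are libraries and lines are means of 2; the spread of 6 to 23 genes on the left narrows to 4 to 8 on the right.

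Open calls differed from gene to gene. Hoxa4, Hoxc10 and Hoxc13 were open in all 12 libraries, 7.69% of Hox genes beside 46.6% of all genes. Hoxa9, Hoxb6, Hoxc4, Hoxc8, Hoxd10 and Hoxd12 were open in none, 15.4% beside 25.8%. The anterior genes, paralogues 1 to 3, were open in 29.2% of calls, the central paralogues 4 to 8 in 47.2%, and the posterior paralogues 9 to 13 in 38.5%. This pooled order did not hold in every group. The anterior class was the lowest in 5 of 6 groups, down to 0% in the wild types of the knockout set, and the highest in the wild types of the C442G set, at 62.5% beside 60.0% central and 46.9% posterior. The central class was the highest in 4 of the 6 groups. These shares come from lists of unequal length. With all lists at 34047 peaks the anterior class was still the lowest in the pooled calls, but the posterior class stood above the central. Along paralogue numbers the share in the lists as deposited was 16.7% and 30.6% for groups 2 and 3, and 43.8% and 77.8% for groups 4 and 5. It was 47.2% for group 8, 63.9% for group 10 and 4.17% for group 12. In these pooled shares no steady gradient ran along the paralogue order, and groups 5, 8 and 10 each stood above their neighbours. With all lists at 34047 peaks groups 8 and 10 still did, but group 5 stood below group 4. At that length Hoxa5 was open in 0 libraries, Hoxb5 in 2 and Hoxc5 in 4.

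**Figure D2:**
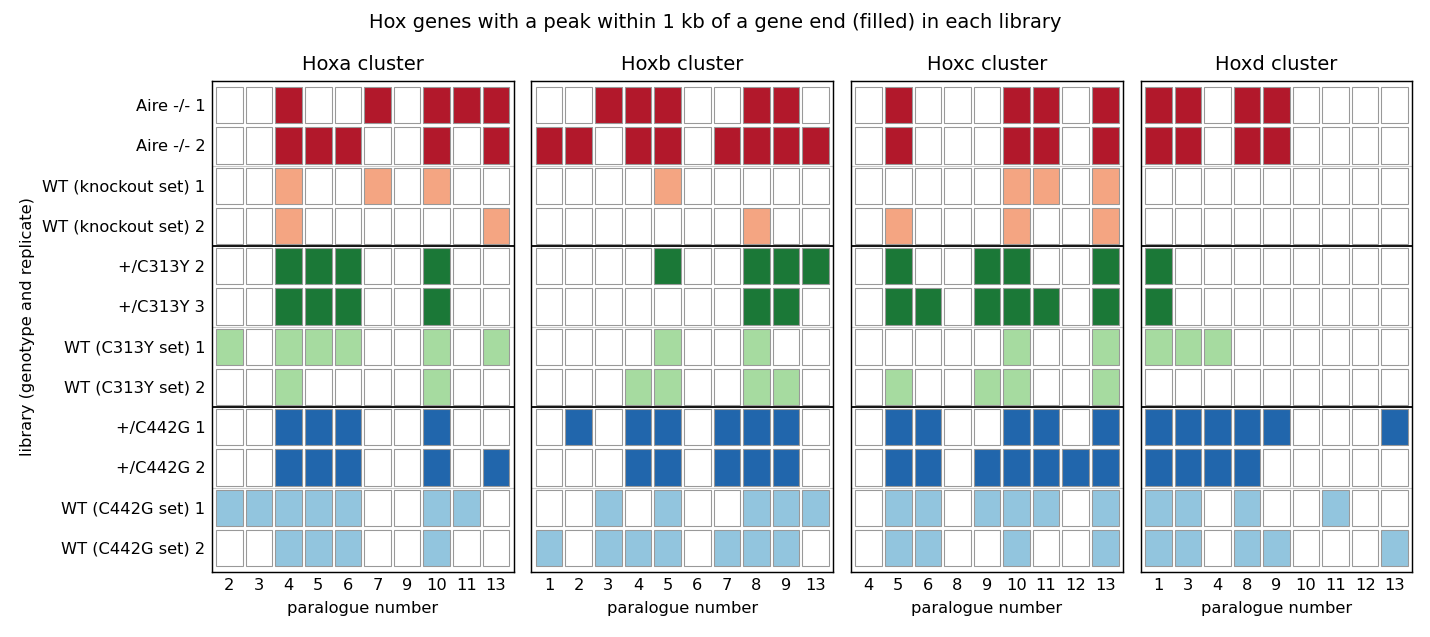
Open calls (filled squares) of the Hox genes reported by name, by cluster and in paralogue order along the x axis, for the 12 libraries in rows, each mutant pair above its wild types. Hoxa4, Hoxc10 and Hoxc13 are filled in every row, and the Hoxd cluster is empty in both wild types of the knockout set.

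In the Hoxa cluster 5 and 5 of 11 genes were open in Aire -/- libraries, against 3 and 2 in their wild types. The +/C313Y libraries had 4 and 4, against 6 and 2, and the +/C442G libraries had 5 and 5, against 8 and 4. Counts by cluster, here and below, come from lists of unequal length. They stand beside 61.3% and 63.0% of all genes open in Aire -/- libraries, against 51.6% and 51.6% in their wild types. Hoxa4 and Hoxa10 were the most regular members of the cluster. The peak at Hoxa4, which helps pattern the neck vertebrae, had folds over background (the authors' own value) of 9.54 and 7.23 in Aire -/- libraries, against 5.09 and 6.35 in their wild types. In the C442G set its folds were 8.68 and 6.69 in heterozygotes, against 5.25 and 5.59 in wild types, and in all 12 libraries it lay 137 to 202 bp from the gene end. These folds belong to lists made separately, so they describe each peak within its own library and no difference between libraries is drawn from them.

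Hoxa10, known for its part in the uterus and hind body, was open in 11 libraries and lacked a peak only in the second wild type of the knockout set. Ranked by −log10 p within its own list, its peak stood at percentiles 86.0 and 79.1 in Aire -/- libraries, against 52.6 in the first wild type, and at 88.1 and 86.5 in +/C442G libraries, against 86.6 and 91.5 in their wild types. Hoxa5, needed for lung and neck skeleton, was open in 8 libraries, 5 mutant and 3 wild type. A peak within 1 kb of both Hoxa5 and Hoxa6 was present in the same 8 libraries, so these neighbours are not separate observations. Hoxa3, the member required for thymus formation, was open in 1 library only, the first wild type of the C442G set, by a 75 bp peak with a fold of 2.9. Its annotated span is long and holds Hoxa4, Hoxa5 and Hoxa6, and in 10 other libraries the nearest peak lay 1001 to 1500 bp from an end. Inside that span chr6:52172499-52172915 had a peak in all 12 libraries, at a median percentile of 75.1 in the lists with scores. A second region there, chr6:52211660-52211849, had one in 11 libraries, at a median percentile of 83.2. Neither region lay within 1 kb of a Hox gene end, so the gene-end rule did not count them. Of other members Hoxa13 was open in 5 libraries, Hoxa2, Hoxa7 and Hoxa11 in 2 each, and Hoxa9 in none.

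In the Hoxb cluster 5 and 8 of 10 genes were open in Aire -/- libraries, against 1 and 1 in their wild types. The +/C313Y libraries had 4 and 2, against 2 and 4, and the +/C442G libraries had 6 and 5, against 5 and 7. Hoxb8, studied in blood progenitors and grooming behaviour, was open in 11 libraries and lacked a peak only in the first wild type of the knockout set. Its peak had folds of 7.96 and 8.08 in Aire -/- libraries, against 5.27 in the second wild type, and 14.4 and 14.3 in +/C442G libraries, against 10.6 and 11.1 in their wild types. It lay 354 to 386 bp before the annotated start of the gene in the libraries that had it, and it was the strongest Hox peak at a gene end in all 4 libraries of the C442G set. Hoxb5, active in the neural crest of the gut, was open in 10 libraries, 5 mutant and 5 wild type, with folds of 3.59 to 6.91. Hoxb9, a member with a role in ribs and mammary gland, was open in all 6 mutant libraries and in 3 of 6 wild types, with folds of 3.41 to 4.35. Hoxb4, known from blood stem cell expansion, was open in 4 mutant and 2 wild-type libraries. Hoxb7 was open in 4 libraries, Hoxb3 and Hoxb13 in 3 each, Hoxb1 and Hoxb2 in 2 each, and Hoxb6 in none. In all 4 libraries with Hoxb7 open a peak lay within 1 kb of both Hoxb7 and Hoxb8, and in all 3 with Hoxb3 open a peak lay within 1 kb of both Hoxb3 and Hoxb5. With all lists at 34047 peaks Hoxb8 was open in both Aire -/- libraries and Hoxb7 in the second. In their wild types Hoxb5 was then open in the first and Hoxb8 in the second.

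In the Hoxc cluster 4 and 4 of 9 genes were open in Aire -/- libraries, against 3 and 3 in their wild types. The +/C313Y libraries had 4 and 6, against 2 and 4, and the +/C442G libraries had 5 and 7, against 6 and 4. Hoxc13, a regulator of hair and nail keratins, was open throughout. Its folds were 5.01 and 6.77 in Aire -/- libraries, against 4.86 and 4.76 in their wild types, and 7.78 and 7.0 in +/C442G libraries, against 5.99 and 5.68. Its strongest peaks were 427 and 394 bp wide in Aire -/- libraries, against 83 and 126 bp, and 293 and 304 bp wide in +/C313Y libraries, against 166 and 286 bp. In these 8 libraries the strongest peaks of the mutants were the wider ones. In the C442G set the widths were 270 and 250 bp in heterozygotes, against 269 and 256 bp in wild types, and overlapped. All peaks within 1 kb of the Hoxc13 ends covered 427 and 394 bp in Aire -/- libraries, against 83 and 350 bp. The totals were 293 and 304 bp in +/C313Y libraries, against 249 and 286 bp. In +/C442G libraries they were 270 and 250 bp, against 623 and 256 bp. Over the 3 contrasts covered length at Hoxc13 gave an exact permutation p of 0.704 (adjusted p = 0.947). Covered length leaned toward the mutants at 79.1% of all genes tested.

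Hoxc10, a posterior gene active in lumbar motor neurons, had folds of 7.35 and 10.3 in Aire -/- libraries, against 5.66 and 4.58 in their wild types. In +/C442G libraries its folds were 11.2 and 9.23, against 8.19 and 8.64. Its peak lay 69 to 118 bp from the gene end in all 12 libraries, and it stood at or above the 89th percentile of its list in 6 of the 8 scored libraries. Hoxc5 was open in all 6 mutant libraries and in 4 wild types, by peaks at more than 1 position near the same end. Hoxc11 was open in 7 libraries, Hoxc6 and Hoxc9 in 5 each, Hoxc12 in 1, and Hoxc4 and Hoxc8 in none.

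In the Hoxd cluster 4 and 4 of 9 genes were open in Aire -/- libraries, against 0 and 0 in their wild types. The +/C313Y libraries had 1 and 1, against 3 and 0, and the +/C442G libraries had 6 and 4, against 4 and 5. Hoxd1, a gene of pain-sensing neurons, was open in all 6 mutant libraries and in 3 wild types, by a peak over its start or, in the first Aire -/- library, 9 bp short of it. Its folds were 3.31 and 5.05 in Aire -/- libraries and 5.32 and 4.68 in +/C442G libraries, against 3.38 and 5.76 in the wild types of the C442G set. Hoxd9 was open in 4 libraries with folds of 3.35 to 3.62, and the peak covered its start in each. Hoxd3 was open in 7 libraries, Hoxd8 in 6, Hoxd4 in 3, Hoxd13 in 2, Hoxd11 in 1, and Hoxd10 and Hoxd12 in none. With all lists at 34047 peaks Hoxd1 was the only Hoxd gene open in the knockout set, in the second Aire -/- library.

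The knockout contrast sets Aire -/- libraries against their wild types and asks which Hox genes are accessible without AIRE. Gained genes were open in each mutant library of a contrast and closed in each of its wild types, and lost genes the reverse. Hoxb4, Hoxb9, Hoxd1, Hoxd3, Hoxd8 and Hoxd9 were gained, 6 of 39 Hox genes (15.4%), beside 5.21% of all genes, and none was lost, beside 0.0277%. Among genes with no peak in either wild type, 6 of 29 Hox genes were gained (20.7%), beside 11.8% of 9597 genes. With lists of equal length none of the 39 was gained, beside 0.8% of all genes, and none was lost, beside 1.57%. Set against the wild types of the C442G set, whose lists of 93659 and 94458 peaks are closest in length, the Aire -/- libraries had gained Hoxa13, beside 0.485% of all genes, and lost Hoxc6, beside 1.4%.

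The peaks at the 6 gained genes ranked low to middling within their lists. Folds at Hoxb4 were 3.05 and 3.69 in the Aire -/- libraries, at Hoxb9 4.08 and 3.87, and at Hoxd8 3.57 and 3.12, against no peak in both wild types. Hoxd9 had folds of 3.6 and 3.35 and Hoxd1 of 3.31 and 5.05. Their percentiles by −log10 p ran from 2.66 at Hoxb4 to 64.4 at Hoxd1. Except at Hoxd3, the nearest wild-type peaks were 1317 and 6511 bp from an end at Hoxb4 and over 2 kb away at Hoxb9, Hoxd1, Hoxd8 and Hoxd9. Hoxd3 is different, since a peak lay 966 and 999 bp from an end in Aire -/- libraries, against 1069 and 1063 bp in wild types. Its call thus rests on distances just inside and just outside the limit, and in all 12 libraries a peak lay 942 to 1069 bp from its end.

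The C313Y contrast had no Hox gene gained, beside 0.846% of all genes, and none lost, beside 0.37%. Calls differed within groups there, as at Hoxd1, which was open in both heterozygotes and 1 of 2 wild types. In the C442G contrast Hoxd4 was gained, beside 0.897% of all genes, and Hoxb3 was lost, beside 0.291%. Both heterozygotes had a peak over the start of Hoxd4, with folds of 4.56 and 3.53, and the second had another with a fold of 3.77 at 668 bp from the start. The peaks lost at Hoxb3, an anterior hindbrain gene, had folds of 3.27 and 3.47 in the wild types. Both C442G calls held with lists of equal length within the contrast, and neither held with all lists at 34047 peaks.

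With 2 libraries against 2 the smallest two-sided exact p is 0.333, so single genes were tested over the 3 contrasts together. The exact two-sided permutation test exchanged labels within contrasts (216 assignments, smallest p = 0.00926) for each of 5980 genes whose calls varied, 30 of them Hox genes, with Benjamini-Hochberg adjustment over the 5980. No gene passed an adjusted p of 0.05 in this exact permutation test, and 17 genes (0.284%) had an unadjusted p under 0.05, none of them a Hox gene. Since p cannot fall below 0.00926, a small number of genes could not pass the adjustment over 5980. The test therefore cannot decide whether a single Hox gene differs. Hoxb9 and Hoxd1 came nearest among Hox genes, each open in 6 mutant and 3 wild-type libraries (exact permutation p = 0.167, adjusted p = 1.0). More mutant than wild-type libraries were open at 20 of the 30 Hox genes, fewer at 4 and equal numbers at 6. The share of 66.7% stood beside 69.8% of all genes tested, so Hox genes leaned toward the mutants about as all variable genes did. The lean was absent with lists of equal length per contrast, where 11 Hox genes were open in more mutant libraries and 11 in fewer, beside 31.9% and 45.3% of all genes tested. With all lists at 34047 peaks the counts were 6 and 6, beside 32.3% and 45.1%.

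The distance limit set many Hox calls. Of 468 gene-library pairs 187 were open, 30 of them by a nearest peak at 501 to 1000 bp, and a further 88 had their nearest peak at 1001 to 1500 bp. Hoxa9, open nowhere, had a peak 1096 to 1241 bp from an end in all 12 libraries. Hoxa2 had one at 1001 to 1500 bp in 9 libraries, and Hoxc6 in 7. With a limit of 2500 bp instead of 1 kb, 74.4% and 89.7% of Hox genes were open in Aire -/- libraries, against 48.7% and 38.5% in their wild types. All genes stood at 69.2% and 70.5% in Aire -/- libraries, against 57.9% and 57.5% in wild types. In the C442G set the Hox share at 2500 bp was 92.3% and 92.3% in heterozygotes, against 87.2% and 82.1% in wild types, while all genes stood at 73.7% and 72.6%, against 70.9% and 71.5%. The lower share of open Hox genes therefore held at 500 bp and 1 kb in all 12 libraries and turned round at 2500 bp in the Aire -/- libraries and the 4 libraries of the C442G set.

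Among genes that were open, Hox genes had the lower-ranking peaks in all 8 scored libraries. The strongest peak of an open Hox gene had a median percentile of 28.9 and 37.8 within the lists of Aire -/- libraries, against 52.6 and 52.3 in their wild types. For all open genes the medians were 87.1 and 88.2 in Aire -/- libraries, against 77.9 and 79.4 in wild types. In the C442G set the Hox medians were 56.5 and 41.4 in heterozygotes, against 22.1 and 41.6 in wild types, and those of all open genes were 87.7 and 86.6, against 85.2 and 86.0. Hoxb8, Hoxc10 and Hoxa4 were at the top of the Hox genes in these 8 libraries. Only 0 to 3 Hox genes per library passed the 90th percentile, which 27.0% to 45.6% of all open genes did.

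Base composition set Hox promoters little apart from others. The promoter table, which spans 250 bases before to 50 after each start, held 24 promoters of 22 of the 39 genes. Their median GC content was 57.7% beside 56.7% for 21045 promoters, and 11 of the 24 (45.8%) were CpG-rich beside 45.6%, meaning GC of at least 50% with a CpG observed-to-expected ratio of at least 0.6. Of 8451 genes with a CpG-rich promoter 87.3% and 88.4% were open in Aire -/- libraries, against 79.6% and 79.5% in their wild types. Of the 11 Hox genes with such a promoter 5 and 6 were open in Aire -/- libraries, against 1 and 1. In the C313Y set 4 and 4 were open in heterozygotes, against 6 and 1, and in the C442G set 6 and 6, against 8 and 6. The Hox share was the lower one in every library.

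Motif matches on either strand were counted in the same promoters. CCAAT was in 62.5% of Hox promoters and 38.5% of all, the nuclear receptor core site AGGTCA in 29.2% and 14.6%, and CACGTG in 20.8% and 7.91%. The PBX-HOX site TGATNNAT was in 16.7% and 7.36%, TATAAA in 16.7% and 12.7%, and the GC box GGGCGG in 41.7% and 46.7%. The AGGTCA promoters were those of Hoxa5, Hoxb4, Hoxc4, Hoxd3, Hoxd4, Hoxd8 and Hoxd10. CACGTG was found at Hoxd1, Hoxd4, Hoxd10, Hoxd11 and Hoxd13, and none of these motifs contains another. These are matches of letters, with no measurement of binding.

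**Figure D3:**
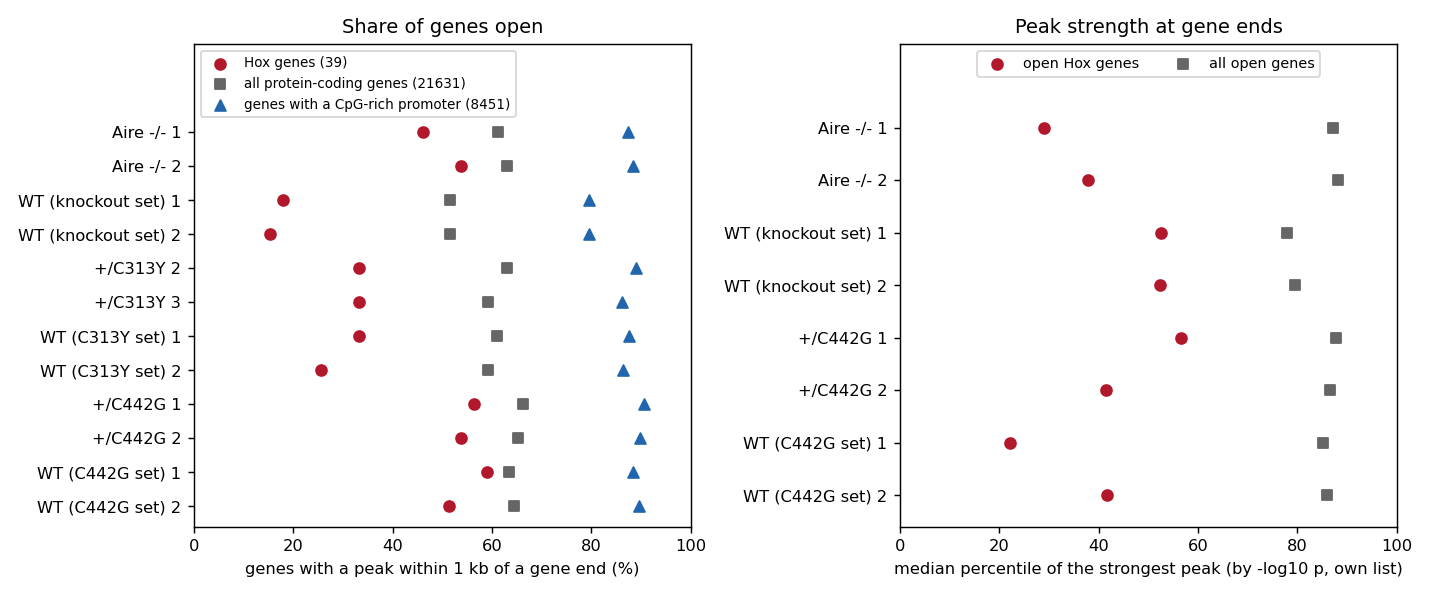
Left, percent of Hox genes, of all protein-coding genes and of genes with a CpG-rich promoter that were open in each library (rows). Right, median percentile of the strongest peak at open Hox genes and at all open genes in the 8 libraries with scores; Hox points lie left of the others in every row of both panels.

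Peaks in the clusters were denser than in the genome. Peaks within the 4 clusters, with 1 kb added on each side, numbered 10.2 and 12.2 per 100 kb in Aire -/- libraries, against 4.2 and 4.4 in their wild types. Genome-wide the density was 3.26 and 3.61 per 100 kb in Aire -/- libraries, against 1.32 and 1.29 in wild types. The genome figures take in stretches with few genes, so they are not matched to the clusters for gene density. The share of cluster bases under a peak was 2.22 to 3.21 times that of the genome in the 12 libraries. Covered length in the clusters was 10250 ± 2850 bp in Aire -/- libraries, against 3266 ± 230 bp in their wild types (SD, n = 2 each), a ratio of 3.14 beside 2.63 for the genome. With each library left out the knockout ratio was 2.52 to 3.75. In the C313Y contrast covered length was 7298 ± 2380 bp in heterozygotes, against 5868 ± 245 bp in wild types (SD, n = 2 each), a ratio of 1.24 beside 1.11 for the genome. That direction rested on 1 library, since the ratio was 0.956 without heterozygote replicate 2 and 1.53 without replicate 3. The ratio was 1.13 beside 1.25 in the C442G contrast, where Hoxb reached 1.38 and Hoxa 0.921.

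Merging the peaks of all libraries gave 126 regions in the clusters, 55 near a Hox gene end, 47 inside a gene and 24 between genes. The share near an end was 43.7%, beside 9.79% of all 228401 regions of the genome. The clusters pack 39 genes into spans of 96.9 to 174 kb. These shares were not adjusted for the density of gene ends, so the difference is not a trait of Hox peaks alone. Of the 126 regions 11 (8.73%) were present in all 12 libraries, beside 8.16% genome-wide, 4 of them near an end, 5 inside a gene and 2 between genes. The 36.4% of these constant regions near an end stood beside 49.5% of 18634 genome-wide. The constant regions near ends were those of Hoxa4, Hoxc13, Hoxc10 and Hoxc6, the last by peaks of only 2 libraries. In the other 3 libraries where Hoxc6 was open the call came from a neighbouring region. The constant region with the highest median percentile, chr2:74715854-74716144, lay inside the annotated span of Hoxd3 over the noncoding gene Hoxd3os1. Its folds were 10.2 and 8.52 in Aire -/- libraries, against 7.44 and 7.34 in their wild types, and 12.8 and 16.5 in +/C442G libraries, against 10.8 and 11.7. It was the strongest peak of all 4 clusters in 5 of the 8 scored libraries.

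The region chr15:102987529-102987708 between Hoxc9 and Hoxc8 had folds of 8.41 and 11.1 in Aire -/- libraries, against 4.83 and 4.69 in their wild types. In the C442G set its folds were 10.9 and 13.3 in heterozygotes, against 10.3 and 13.1 in wild types. The region chr6:52221522-52221943 between Hoxa7 and Hoxa9 had folds of 3.91 and 8.84 in Aire -/- libraries, against 4.43 and 4.29, and it is the one that brings a peak close to Hoxa9. The gap between Hoxb13 and Hoxb9 held chr11:96235029-96235199, present in 11 libraries and up to a fold of 17.9 in the first +/C442G library. Peaks away from gene ends had the higher median percentile in all 8 scored libraries, 50.3 and 56.1 beside 38.1 and 51.3 near ends in Aire -/- libraries, and 57.7 and 38.4 beside 47.2 and 35.2 in their wild types.

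**Figure D4:**
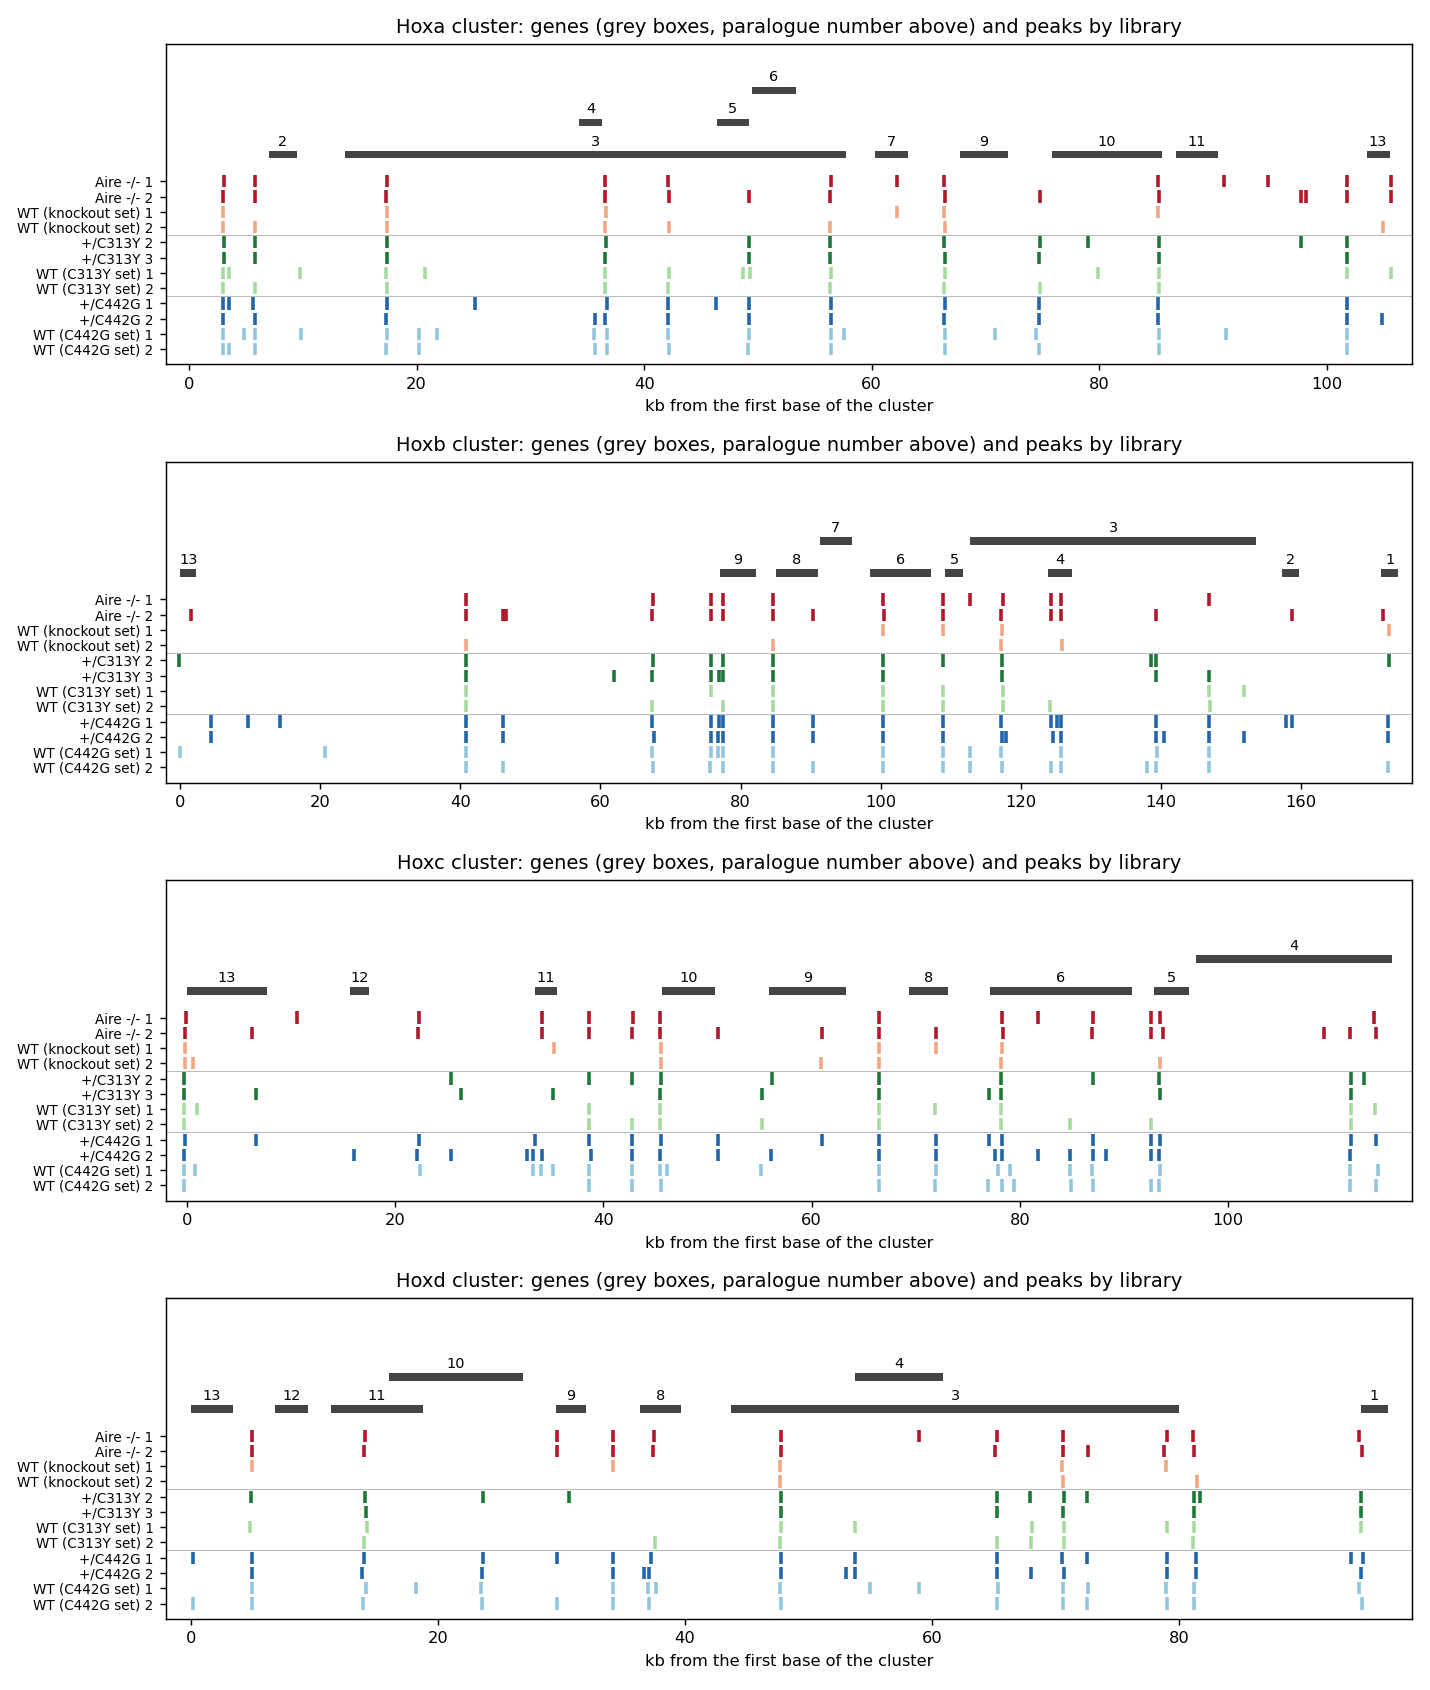
Maps of the 4 clusters, with distance in kb from the first base of each cluster on the x axis, genes reported by name as grey boxes with paralogue numbers, and peaks of the 12 libraries as ticks at their midpoints (not drawn to width), each mutant pair above its wild types. Columns of ticks mark the 11 regions present in all libraries, most of them inside or between genes, and the wild types of the knockout set have the fewest ticks.

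Regions gained in both Aire -/- libraries and absent from both wild types numbered 18 (14.3% of the 126), beside 11.1% of all regions of the genome, and none was lost, beside 0.0429%. Of the 18, 8 were near gene ends. An internal start of Hoxd11 was among them, with folds of 5.34 and 5.35 in Aire -/- libraries and no peak in their wild types, and folds of 6.69 and 5.08 in +/C442G libraries, against 4.62 and 4.65. This start lies 2765 bp inside the annotated gene, so Hoxd11 counted as open in 1 library by its ends although 10 libraries had a peak at the start. Hoxc4 likewise had peaks within 1 kb of an internal start in 7 libraries and Hoxd10 in 5, with none at their ends. Conversely Hoxa6 and Hoxd3 had no peak within 1 kb of their start in any library, and their calls came from the far end of the gene. The start that the promoter table gives for Hoxb8 lies 2504 bp inside the gene and had no peak within 1 kb, whereas the peak described above lay just before the first base of the annotated gene. The C313Y contrast had 2 regions gained (1.59%, beside 2.31% of all regions) and 1 lost (0.794%, beside 0.719%). The C442G contrast had 3 gained (2.38%, beside 5.01%) and 2 lost (1.59%, beside 0.708%).

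The clusters also hold 6 microRNA genes, which repress Hox messages among others. Their mature 5p sequences fall into 2 shared seeds and that of miR-615, shown from RefSeq (GRCm38.p6) with the seed, bases 2 to 8, in capitals.
miR-196b-5p: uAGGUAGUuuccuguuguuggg
miR-196a-5p: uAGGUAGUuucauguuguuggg
miR-10a-5p: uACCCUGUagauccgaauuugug
miR-10b-5p: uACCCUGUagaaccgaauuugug
miR-615-5p: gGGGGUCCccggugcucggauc
A peak covered part of the Mir196b hairpin, between Hoxa9 and Hoxa10, in 7 libraries, 5 mutant and 2 wild type, and lay within 1 kb of it in 8. Its seed partners Mir196a-1 in Hoxb and Mir196a-2 in Hoxc had no peak within 1 kb in any library. Mir615 lies in Hoxc5 and had a peak within 1 kb in 9 libraries, 6 mutant and 3 wild type, but over its hairpin in 1 only. Those 9 come from a region near the Hoxc5 end, so they are not separate from the Hoxc5 calls. Mir10a had no peak within 1 kb in any library, and Mir10b had one in 1 library, a wild type. Genes with the same seed thus differed in their calls between clusters.

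Genes that work with or on Hox genes were counted by the same rule. Of 9 HOX cofactors of the Pbx, Meis and Pknox families 8 were open in all 12 libraries, and none was gained or lost. Of 21 Polycomb genes 14 were open in all libraries and Phf19 and Cbx6 were gained in Aire -/- libraries. Of 10 Trithorax and MLL genes 8 were open throughout. Among 14 genes of retinoic acid synthesis, breakdown and reception 8 and 8 were open in Aire -/- libraries, against 3 and 5 in their wild types (lists unequal in length as above). Rarg, Aldh1a2 and Cyp26a1 were gained there, and Cyp26a1, which degrades retinoic acid, was gained in the C442G contrast also.

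None of the 8 Cdx, ParaHox and Evx genes, the homeobox relatives of the clusters, was open in all libraries. Gsx1 was gained in Aire -/- libraries and lost in the C313Y contrast, where Cdx2 was gained. Of 8 pharyngeal pouch regulators, which pattern the tissue the thymus grows from, 5 and 6 were open in Aire -/- libraries, against 2 and 3, and Pax1 and Tbx1 were gained. Of 9 genes flanking the clusters 5 were open in all 12 libraries, and none was gained or lost in any contrast. All these gains stand beside the 5.21%, 0.846% and 0.897% of all genes gained in the 3 contrasts, and none of them was tested singly.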

How the data were processed

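ATAC-seq peak lists of 12 mTEChi libraries were used as deposited, 1 list per library. Tools named in the submitters' processing notes are Bowtie2, MACS2, Picard and cutadapt, with build mm10. How reads were shifted and which parameters applied is not given in the sources used here. For 8 libraries the authors deposited a score, a linear fold (ratio) against background, a −log10 q and a −log10 p per peak, and for the 4 libraries of the C313Y set positions only. These values were used within a list alone. Each list was called separately, so a missing peak means not called at that depth.

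Samples were grouped by title and genotype, and wild types were matched to mutants by the form of the titles, an assumption. Genes and promoters came from RefSeq tables of GRCm38.p6, whose coordinates are those of mm10. All 39 Hox genes matched and entered the counts; 1 of them is not reported here by itself. Only chromosomes 1 to 19 and X were used, and 1 bp within 1 kb of a gene end made a gene open. Percentiles rank peaks by −log10 p (C313Y set: by width). The exact permutation test was run on all 5980 variable genes with Python 3.11.15, numpy 2.4.6 and pandas 2.3.3, and was tested on simulated calls. Values are given in full for genes gained or lost, for Hoxa3 and for the 3 members of each cluster open in most libraries (ties by percentile in the C442G wild types); of the related lists only gained or lost genes are named, beside markers. The members, gene lists and tests were chosen with earlier results of these data known. Alternatives covered windows, gene bodies, starts, overlap, −log10 q, list length, presence in 1 library, other wild types, a replicate block and leaving out each replicate; 2 of them, all lists at the length of the shortest and the C442G-set wild types as controls for the knockout, were chosen after seeing the data.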

Additional observations from a re-analysis of the deposited data

How the results depend on the processing

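Counts of gained and lost Hox genes depended on the window and on list length. Genes gained in the knockout contrast numbered 3 with a window of 2500 bp, 1 with −log10 q of at least 3, 0 with lists of equal length per contrast, 0 with all lists at the length of the shortest, 14 when presence in 1 library was enough, 0 against all 6 wild types and 1 against the C442G-set wild types, where 1 was lost. They were 8 to 12 with each replicate left out, the 12 without the first Aire -/- library. The genes changed as well as their number. At 2500 bp they were Hoxc4, Hoxd1 and Hoxd10, and at −log10 q of at least 3 the gene was Hoxa10. At 500 bp 6 were gained, with Hoxa13 and Hoxc5 in place of Hoxd3 and Hoxd8. In the C313Y contrast presence in 1 library gave 3 gained and 5 lost, and leaving out each replicate gave 1 to 3 gained and 0 to 4 lost. In the C442G contrast 0 were gained and 0 lost at 2500 bp, with gene bodies, with all lists at the shortest length and against all 6 wild types, 0 were lost at starts of transcription and at −log10 q of at least 3, 4 were gained and 7 lost with presence in 1 library, and 2 to 3 were gained and 1 to 6 lost with each replicate left out, the 6 without the second wild type. At −log10 q of at least 3 the gene gained in the C442G contrast was Hoxb9, not Hoxd4. Genes open in all libraries numbered 7 at 2500 bp, 8 with gene bodies, 0 at starts and 1 with all lists at the shortest length. Genes open in no library numbered 0, 1 and 21 at 2500 bp, with gene bodies and with all lists at the shortest length. The cause was not tested, except that a wider window or a shorter list by construction finds more or fewer peaks. Of single-gene values 38 fell short of the call under an alternative and 56 kept it. Of counts and ratios 138 stayed within 1.5 times or the spread between libraries, and 43 moved further. The 138 take in the counts of genes past the exact permutation test, 0 under every setting, which the smallest p left little room to change. They also take in the C313Y covered-length ratio of 1.24, which turned to 0.956 without heterozygote replicate 2. No gene passed the exact permutation test under any setting; on covered base pairs the smallest adjusted p was 0.263. With the replicate block the smallest p was 0.0625 over 32 assignments and 0 genes passed. Same-numbered libraries did not deviate together (correlation 0.00871 in the knockout set and 0.0225 in the C442G set), so numbers were not taken as pairs. The −log10 q alternative could not be run for the C313Y set. List length and 2 libraries a group limit every comparison.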
